A study of Homo sapiens with 6 samples.

Results

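The 40 genes described here encode the transcription factor NRF2, its repressor KEAP1, known NRF2 targets and the enzymes that make and use glutathione. They were taken by symbol from a table of 21293 genes, and all 40 were in it. Of these, 36 had a mean normalized count of at least 10 over the 6 libraries and were tested, whereas GPX2, GSTP1, GSTM3 and ALDH3A1 fell under that level and are given by their values alone. The table was made from polyA RNA of H2087-LCC, a human lung adenocarcinoma (LUAD) cell population that was selected in mice, from the stage I line H2087, for its capacity to persist as a dormant metastasis. The cells were incubated with the TGFβ receptor inhibitor SB505124 (SB) for 3 days, with TGFβ for 3 days or with TGFβ for 7 days, and each of the 3 groups held 2 libraries of the same cells. SB blocks the signaling that cultured cells receive from their own TGFβ, so the reference was an inhibited state rather than an untreated one. SB was given for 3 days only. In the comparison of TGFβ at 7 days with SB, treatment and time in culture therefore cannot be told apart. The comparison of TGFβ at 7 with 3 days likewise cannot separate longer treatment from longer culture. The study describes the 2 libraries of a group as technical replicates, so the p-values measure the spread between libraries, which may not include that between cultures.

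NRF2, the product of NFE2L2, is a basic leucine zipper factor that pairs with small MAF proteins and binds antioxidant response elements in the DNA of its targets. In unstressed cells KEAP1 delivers NRF2 to a ubiquitin ligase for degradation. Oxidants and electrophiles modify cysteines of KEAP1 and let NRF2 accumulate, so its activity is set largely at the level of the protein, and BACH1 competes with it for the same elements. The targets make glutathione, regenerate reduced thioredoxin and NADPH, detoxify quinones, heme, iron and carbonyls, and export conjugates. Loss of KEAP1 or gain of NFE2L2 function is a recurrent event in LUAD. RNA levels alone were measured here, and NRF2 protein, its binding to DNA and glutathione itself were not.

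The normalized totals of the 6 libraries lay between 34306283 and 36340734. Spacing among low values put the number of assigned reads between 32000000 and 40000000, although this estimate was weak for SB replicate 2 and for TGFβ 3-day replicate 1. The cells held lung epithelial transcripts, with summed normalized counts of 8 markers between 89153 and 123588, whereas the 5 leukocyte markers summed to between 9 and 27. KRT8 and KRT18 were the largest of the 8. At both times 5 epithelial markers (EPCAM, CDH1, KRT18, NKX2-1 and SFTPB) were called lower than SB and KRT7 higher. These were 75% of the list, beside 29.0% of all genes at 3 days and 54.5% at 7 days. NKX2-1 measured 2784 and 2908 in SB, 712 and 748 at 3 days and 853 and 857 at 7 days. The 4 endothelial markers summed to between 93 and 294, and the 4 fibroblast markers to between 210 and 258 in SB and between 465 and 595 at 7 days, with LUM at 0 in every library. The part of these lists in the results below was not tested. All 5 markers of the TGFβ response were called higher than SB at both times. CDH1, which encodes E-cadherin, measured 371 and 635 in the SB libraries, 28 and 24 at 3 days and 10 and 9 at 7 days. The SB libraries therefore stood apart from each other, with CDH1 lower in SB replicate 1. Among the 36 tested members, 27 (75.0%) were higher in SB replicate 1 than in SB replicate 2, against 50.7% of all 14395 tested genes, and the median log2 difference was 0.18 for the members and 0.01 for all genes. The same count was 20 of 36 between the 3-day libraries and 19 of 36 between the 7-day libraries. Each comparison with SB was therefore also made without either SB library.

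After 3 days of TGFβ, 18 of the 36 tested members differed from SB at an adjusted p under 0.05, 13 of them higher and 5 lower. This was 50% of the members, and 29.0% of all genes tested were called in that comparison, 14.9% higher and 14.0% lower. After 7 days, 19 members differed from SB, 9 higher and 10 lower, which was 52.8% of the members beside 54.5% of all genes (27.7% higher and 26.9% lower). Between 7 days and 3 days of TGFβ, 13 members differed, 2 higher and 11 lower, which was 36.1% of the members beside 33.2% of all genes (17.0% higher and 16.2% lower). The share of members called thus stood above the background at 3 days and near it in both comparisons with 7 days. The median log2 fold change of the members was 0.04 at 3 days, -0.05 at 7 days and -0.15 between the times, beside -0.02, -0.00 and 0.02 for all genes. A change of at least 2-fold that passed the test was seen in 5 members at 3 days (13.9%, beside 8.80% of all genes), in 4 at 7 days (11.1%, beside 16.7%) and in 0 between 7 and 3 days (beside 6.53%), while 13 members passed the test itself in the last of these. Without SB replicate 1, 15 members were higher and 6 lower at 3 days, and without SB replicate 2, 10 were higher and 5 lower. Without 3-day replicate 2 the split was 11 higher and 3 lower. Scaling the libraries to equal totals left 12 members higher and 5 lower at 3 days and turned the split over all genes called to 1819 higher and 2552 lower. The comparisons at 3 and 7 days share the SB libraries, and their values are set side by side below.

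**Figure D1:**
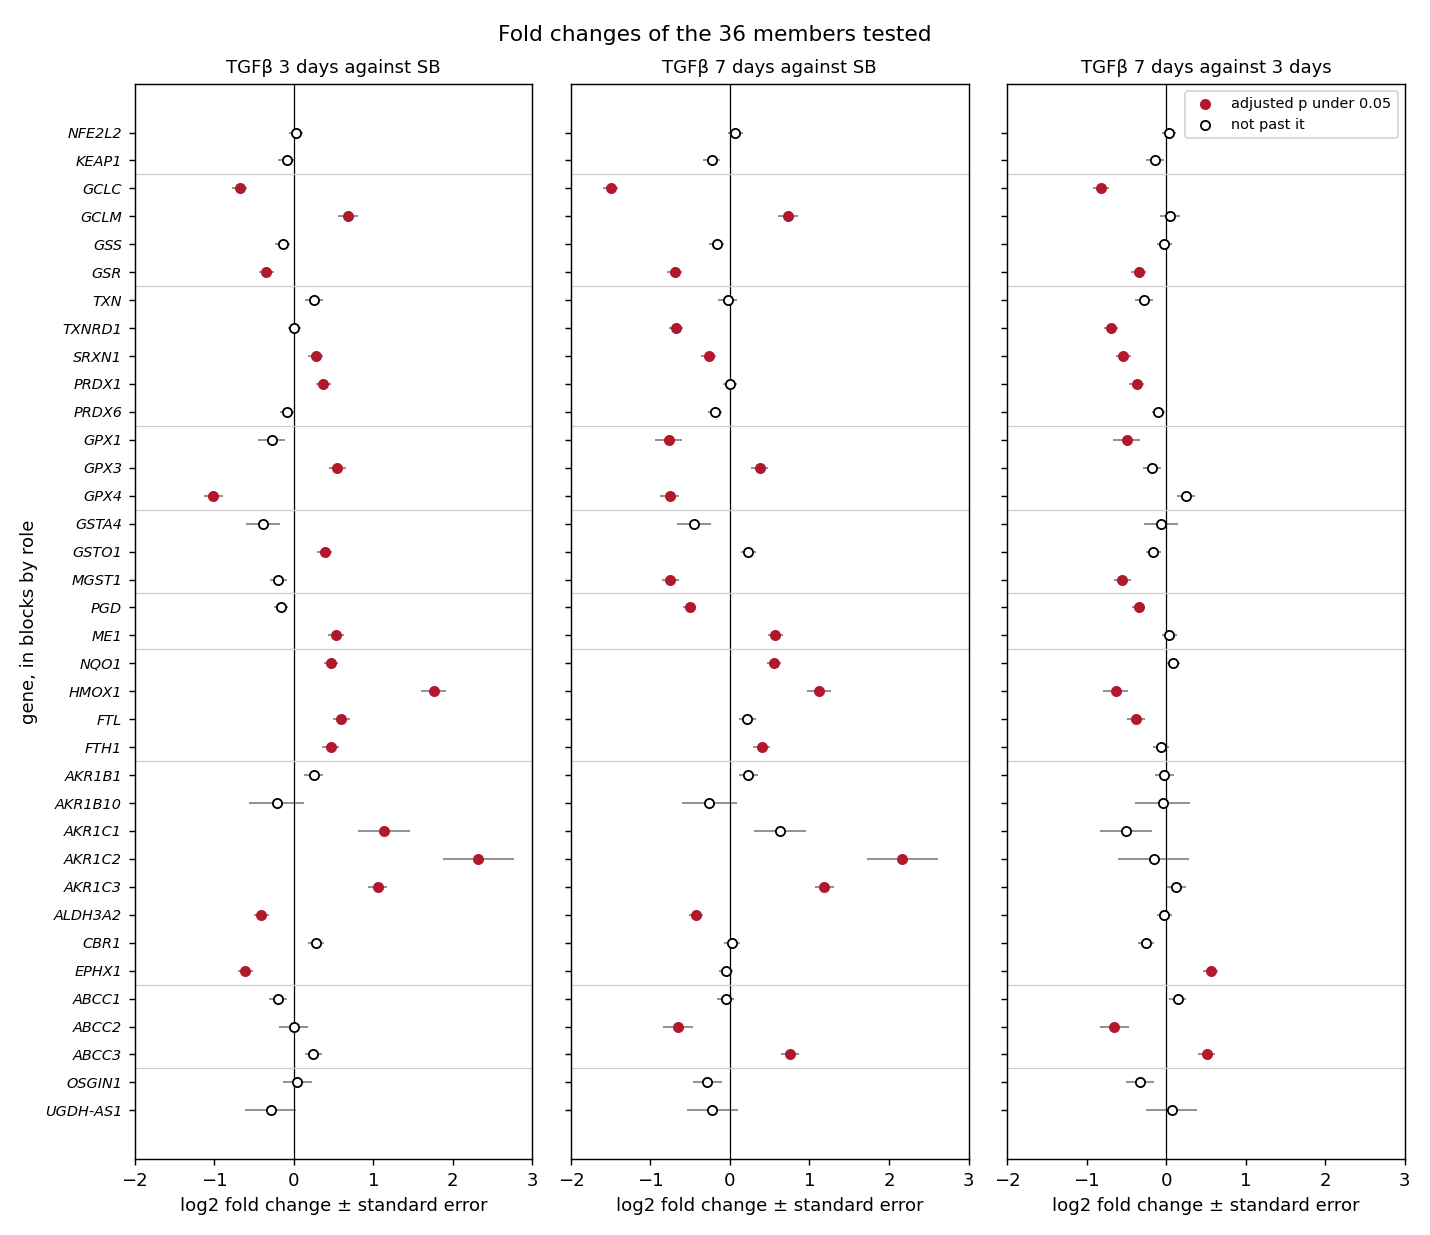
Log2 fold change ± standard error of the 36 tested genes in each comparison, with genes in rows by role and filled points for an adjusted p under 0.05 (limma). At 3 days 13 genes were higher and 5 lower than in SB, and between 7 and 3 days 11 of the 13 genes called were lower.

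The genes for the regulator and its repressor showed no change that passed the test. NFE2L2 (chr2:178083395-178257484 of hg19, minus strand) measured 4575 and 4284 normalized counts in SB, 4786 and 4262 at 3 days and 4545 and 4746 at 7 days. The 3 groups overlapped, with a log2 fold change of 0.03 ± 0.09 (SE) for TGFβ at 3 days (adjusted p = 0.843) and 0.07 ± 0.09 for 7 days (adjusted p = 0.536). Of its exon bases, 23.4% are shared with HNRNPA3 on the opposite strand, which measured 15904 to 19841, and the library kit did not mark strand, so reads in the shared bases cannot be told apart. KEAP1 (chr19:10596801-10614234, minus strand) measured 916 and 868 in SB, 792 and 884 at 3 days and 787 and 733 at 7 days. Both 7-day values were the lowest of the 6, with a log2 fold change from SB of -0.23 ± 0.11 (adjusted p = 0.0994), which did not pass the test.

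Glutathione is made in 2 steps, and the first of them, the joining of glutamate and cysteine, limits its rate. That step is carried out by a ligase of a catalytic subunit, encoded by GCLC, and a modifier subunit, encoded by GCLM, which lowers the feedback inhibition of the enzyme by glutathione. Against SB, the transcripts of these subunits moved in opposite directions in the TGFβ groups. GCLC (chr6:53362139-53481768 of hg19, minus strand) measured 18615 and 15497 normalized counts in SB, 11095 and 10107 at 3 days and 5833 and 6166 at 7 days. No values of the 3 groups overlapped, and GCLC stood at 62.3% of the SB level at 3 days (log2 fold change -0.68 ± 0.10, adjusted p = 0.000272) and at 35.3% at 7 days (-1.50 ± 0.10, adjusted p = 1.78e-07). The fall from 3 to 7 days passed the test as well (-0.82 ± 0.10, adjusted p = 0.000147).

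GCLM (chr1:94350755-94375012, minus strand) measured 5935 and 4290 in SB, 8388 and 7831 at 3 days and 8202 and 8585 at 7 days. It was 1.61-fold higher than SB at 3 days (0.68 ± 0.13, adjusted p = 0.00162) and 1.66-fold higher at 7 days (0.73 ± 0.13, adjusted p = 0.000423), and the values of 3 and 7 days overlapped. The ratio of GCLC to GCLM normalized counts, which is not corrected for transcript length, was 3.14 and 3.61 in the SB libraries, 1.32 and 1.29 at 3 days and 0.711 and 0.718 at 7 days. The ratio thus separated all 3 groups with little spread inside the TGFβ groups. Both calls held without either SB library. GCLC at 3 days lay between -0.81 and -0.55 on the log2 scale and GCLM between 0.45 and 0.92 with an SB library left out.

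**Figure D2:**
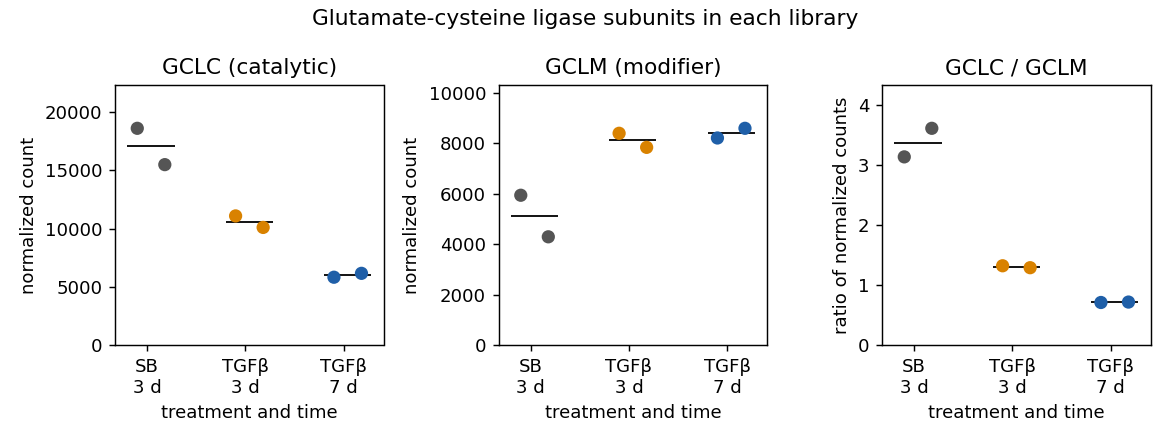
Normalized counts of GCLC and GCLM and their ratio in each library (points) with the mean of each group (lines), for SB and for TGFβ at 3 and 7 days. GCLC fell from between 15497 and 18615 to between 5833 and 6166, GCLM rose from between 4290 and 5935 to at least 7831, and the ratio went from 3.14 and 3.61 in the SB libraries to 0.711 and 0.718 at 7 days.

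The promoters of the ligase subunits were read for the letters of the antioxidant response element, TGACNNNGC, on both strands. The window was 300 bases, from 250 before to 50 after an annotated start of each gene (RefSeq, GRCh38.p14). Of the 40 members, 30 had a window, and 9 of these (30%) held the letters, beside 13.6% of all 27305 promoters in the table and 15.1% of the promoters of tested genes. Among the tested members it was 7 of 27 (25.9%). The windows of the ligase subunits are shown because their transcripts moved apart, together with those of TXNRD1, which fell at 7 days, and ME1, which was higher at both times. All 4 are written 5′ to 3′ on the strand of the gene, minus for GCLC, GCLM and ME1 and plus for TXNRD1, and capitals mark the matched letters in either orientation.
GCLC, chr6:53545052-53545351: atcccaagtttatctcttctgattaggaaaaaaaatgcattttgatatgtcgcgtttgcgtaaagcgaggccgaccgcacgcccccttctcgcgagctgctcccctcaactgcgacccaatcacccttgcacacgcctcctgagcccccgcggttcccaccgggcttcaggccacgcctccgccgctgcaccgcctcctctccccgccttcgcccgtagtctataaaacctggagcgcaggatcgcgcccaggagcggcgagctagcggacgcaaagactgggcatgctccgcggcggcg
GCLM, chr1:93909381-93909680: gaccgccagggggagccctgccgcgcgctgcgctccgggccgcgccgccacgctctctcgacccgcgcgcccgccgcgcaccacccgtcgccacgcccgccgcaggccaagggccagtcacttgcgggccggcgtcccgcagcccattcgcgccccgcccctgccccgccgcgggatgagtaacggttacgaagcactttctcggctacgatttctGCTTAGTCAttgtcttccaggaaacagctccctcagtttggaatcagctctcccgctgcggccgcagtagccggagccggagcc
TXNRD1, chr12:104215529-104215828: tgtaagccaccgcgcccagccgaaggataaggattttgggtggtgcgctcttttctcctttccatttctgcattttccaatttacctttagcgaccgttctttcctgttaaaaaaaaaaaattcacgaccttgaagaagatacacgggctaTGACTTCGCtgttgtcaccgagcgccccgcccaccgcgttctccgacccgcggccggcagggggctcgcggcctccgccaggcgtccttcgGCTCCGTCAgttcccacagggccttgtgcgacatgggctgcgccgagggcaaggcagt
ME1, chr6:83431002-83431301: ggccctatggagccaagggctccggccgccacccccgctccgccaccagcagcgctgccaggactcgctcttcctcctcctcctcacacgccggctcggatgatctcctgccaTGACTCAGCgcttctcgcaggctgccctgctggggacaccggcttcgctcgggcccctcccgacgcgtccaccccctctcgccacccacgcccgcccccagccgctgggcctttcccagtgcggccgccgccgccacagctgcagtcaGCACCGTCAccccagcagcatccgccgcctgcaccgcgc

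The GCLM window held 1 match, beginning 34 bases before the start, and the GCLC window held none. The TXNRD1 window held matches 99 and 8 bases before the start, and the ME1 window held them 137 bases before the start and 12 bases into the gene. The match upstream of ME1 also spells the AP-1 letters TGACTCA, which occurred in either orientation (TGACTCA or TGAGTCA) in 3 of the 30 member windows (GSTP1, ME1 and OSGIN1) and in 4.92% of all promoters. GPX2, GSTA4, GSTP1, GSTO1, PGD and CBR1 were the other members with the response element letters. Members with these letters thus included genes that rose (GCLM, ME1, GSTO1), genes that fell (TXNRD1, PGD) and genes that were not called. NQO1, SRXN1 and the AKR1C genes had no match in their windows, and elements farther from the start were not searched. A match is a run of letters and was not measured as a binding site. Each gene was read at 1 annotated start, other starts were not searched, and the starts that these cells used were not known.

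The genes of the later steps, the second step of synthesis and the recycling of glutathione, were not called or fell. GSS, which adds glycine to complete the tripeptide, was not called in any comparison, and its log2 difference from SB was -0.14 (adjusted p = 0.286) and then -0.17 (adjusted p = 0.153). Without SB replicate 2 the 7-day difference of GSS was larger, at -0.27. GSR, the reductase that returns oxidized glutathione to its reduced form, measured 1942 and 2049 in SB, 1600 and 1535 at 3 days and 1270 and 1198 at 7 days. GSR therefore stepped down with no overlap between groups, by 0.35 ± 0.09 at 3 days (adjusted p = 0.0166) and by 0.69 ± 0.09 at 7 days (adjusted p = 7.83e-05) on the log2 scale. The 3-day call of GSR was lost without SB replicate 2 or either 3-day library (adjusted p from 0.0597 to 0.101), whereas its 7-day call held under every alternative.

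In the thioredoxin branch, the reductase TXNRD1 was not called at 3 days and fell at 7 days. TXNRD1 (chr12:104609557-104744085, plus strand) transfers electrons from NADPH to thioredoxin and measured 92508 and 81739 in SB, 90242 and 84810 at 3 days and 53943 and 54468 at 7 days. Against SB it differed by 0.01 ± 0.09 on the log2 scale after 3 days (adjusted p = 0.951) and by -0.68 ± 0.09 after 7 days (adjusted p = 4.11e-05), and the times differed by -0.69 ± 0.09 (adjusted p = 0.000184). Both 7-day libraries lay below the other 4, at 62.3% of the SB level. TXN itself, the small thiol carrier, measured 12135 and 9259 in SB, 13014 and 12257 at 3 days and 9945 and 10826 at 7 days. TXN passed no test over the 6 libraries, but was called at 3 days without SB replicate 1 (log2 fold change 0.45, adjusted p = 0.00559) and in 7 against 3 days without either SB library (-0.28, adjusted p of 0.0143 and 0.014).

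SRXN1 (chr20:627259-633844, minus strand) encodes sulfiredoxin, which repairs overoxidized peroxiredoxins. Its normalized counts were 4603 and 4004 in SB, 5410 and 4995 at 3 days and 3531 and 3613 at 7 days, so the order of the groups was 3 days, SB and 7 days with no overlap. SRXN1 was the only tested member called higher than SB at 3 days (0.28 ± 0.09, adjusted p = 0.0435) and lower at 7 days (-0.27 ± 0.09, adjusted p = 0.0298). The fall between the times was larger (-0.54 ± 0.09, adjusted p = 0.00138) and held under every alternative. The 3-day call, however, was lost in 10 of 16 alternatives, SB replicate 2 left out among them (0.18, adjusted p = 0.194), and the 7-day call in 5, SB replicate 1 left out among them (-0.16, adjusted p = 0.169). PRDX1, a peroxiredoxin that reduces hydrogen peroxide with thioredoxin, had the same order at 3 days, with 19728 and 16795 in SB, 24613 and 22492 at 3 days and 17786 and 18654 at 7 days. PRDX1 was higher than SB at 3 days (0.37 ± 0.09, adjusted p = 0.0109) and back among the SB values at 7 days (0.00 ± 0.09, adjusted p = 0.994). The 3-day call of PRDX1 was lost without SB replicate 2 (adjusted p = 0.059) or 3-day replicate 1 (adjusted p = 0.0984), and 29.8% of its exon bases are shared with MMACHC on the opposite strand, which measured 342 to 561. PRDX6 was not called, with log2 fold changes between -0.18 and -0.09 in the 3 comparisons. With equal library totals, however, PRDX6 was called lower than SB at 7 days (-0.23, adjusted p = 0.0267), and without SB replicate 2 its 7-day value was -0.28.

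The glutathione peroxidases, which spend glutathione to reduce peroxides, split by member. GPX4 (chr19:1103981-1106790, plus strand) reduces lipid peroxides in membranes and restrains ferroptosis. It measured 4289 and 4558 in SB, 1982 and 2429 at 3 days and 2839 and 2404 at 7 days. All 4 TGFβ libraries lay below both SB libraries, at 49.6% of the SB level at 3 days (-1.01 ± 0.12, adjusted p = 4.52e-05) and 59.1% of it at 7 days (-0.76 ± 0.12, adjusted p = 0.000178), and both calls held under every alternative. GPX1, the abundant cytosolic enzyme, measured 3966 and 3277 in SB, 2563 and 3460 at 3 days and 2516 and 1769 at 7 days, and fell at 7 days (-0.77 ± 0.17, adjusted p = 0.00243) and not detectably at 3 days (-0.28 ± 0.17, adjusted p = 0.257). The secreted enzyme GPX3 went the other way, with 6725 and 5145 in SB, 8727 and 8485 at 3 days and 7617 and 7601 at 7 days. GPX3 was higher at 3 days (0.55 ± 0.11, adjusted p = 0.00293) and again, by less, at 7 days (0.37 ± 0.11, adjusted p = 0.0137), although the 7-day call was lost without SB replicate 2 (0.18, adjusted p = 0.0899) or either 7-day library (adjusted p of 0.0625 and 0.0647). GPX2 stood between 6 and 13 normalized counts in all 6 libraries.

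Of the 5 glutathione transferases, which attach glutathione to electrophiles, 3 were expressed at a level that could be tested. MGST1, a membrane enzyme, measured 7121 and 5690 in SB, 5806 and 5333 at 3 days and 3694 and 3881 at 7 days. It fell at 7 days (-0.75 ± 0.11, adjusted p = 0.000111), and its 3-day value of -0.19 ± 0.11 (adjusted p = 0.201) was called without SB replicate 2 (-0.36, adjusted p = 0.0225). GSTO1, an omega class enzyme, was higher at 3 days, from 3602 and 3092 in SB to 4538 and 4220 (0.39 ± 0.10, adjusted p = 0.00918), and that call was lost without SB replicate 2 (adjusted p = 0.0527) or 3-day replicate 1 (adjusted p = 0.0805). At 7 days GSTO1 stood at 0.23 ± 0.10 against SB (adjusted p = 0.0587), and was called with the libraries scaled to their upper quartile (0.26, adjusted p = 0.0403). Without SB replicate 1 its 7-day value was 0.34. GSTA4 lay between 68 and 106 and was not called. GSTP1 was listed at 0 in all 6 libraries and GSTM3 at 0 to 3.

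The enzymes that supply NADPH for both systems also moved apart. ME1, the cytosolic malic enzyme (chr6:83920121-84140770, minus strand), measured 3199 and 2999 in SB, 4749 and 4217 at 3 days and 4366 and 4860 at 7 days. Every TGFβ library was above both SB libraries, by 0.53 ± 0.10 at 3 days (adjusted p = 0.00133) and by 0.57 ± 0.10 at 7 days (adjusted p = 0.000337) on the log2 scale. PGD, a dehydrogenase of the pentose phosphate pathway, measured 5474 and 5385 in SB, 4671 and 5036 at 3 days and 3953 and 3685 at 7 days. PGD fell at 7 days (-0.51 ± 0.08, adjusted p = 0.000342) and was not called at 3 days (-0.16 ± 0.08, adjusted p = 0.174). ME1 at both times and PGD at 7 days kept their calls under every alternative.

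Among the roles of the members with more than 2 tested genes, the quinone, heme and iron genes were the only one in which every gene was called in the same direction at 3 days. Of these, 4 of 4 were higher than SB at 3 days and 3 of 4 at 7 days, beside 14.9% and 27.7% of all genes called higher. The calls of FTH1 at both times were lost without the filter on low values and without the trend, as given below. The 9 other genes listed for this role, which are no members, had 0 called higher and 2 lower at 3 days and 0 higher and 4 lower at 7 days. HMOX1 (chr22:35776354-35790207, plus strand) encodes the inducible heme oxygenase that opens heme to biliverdin, carbon monoxide and iron. It measured 737 and 520 in SB, 1961 and 2243 at 3 days and 1450 and 1254 at 7 days. The 3 groups did not overlap, and HMOX1 was 3.38-fold higher than SB at 3 days (1.76 ± 0.15, adjusted p = 4.79e-06) and 2.18-fold higher at 7 days (1.12 ± 0.15, adjusted p = 7.8e-05). Without an SB library the 3-day value lay between 1.51 and 2.01. The decline from 3 to 7 days was -0.64 ± 0.15 (adjusted p = 0.00856) and lost its call without 7-day replicate 2 (-0.53, adjusted p = 0.0805).

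NQO1 (chr16:69740899-69760571, minus strand), a quinone reductase widely used as a readout of NRF2, measured 20095 and 17222 in SB, 26392 and 25083 at 3 days and 26896 and 27731 at 7 days. All TGFβ libraries lay above both SB libraries, by 0.47 ± 0.09 on the log2 scale for 3 days (adjusted p = 0.00192) and 0.55 ± 0.09 for 7 days (adjusted p = 0.000252), and no difference between the times passed the test (0.09 ± 0.09, adjusted p = 0.485). The light and heavy chains of ferritin, which store iron, measured 39256 and 31834 (FTL) and 32186 and 25099 (FTH1) in SB. At 3 days FTL measured 50449 and 56652 (0.60 ± 0.11, adjusted p = 0.00152) and FTH1 39282 and 39078 (0.46 ± 0.11, adjusted p = 0.00633). The 3-day call of FTH1 was lost without the filter (adjusted p = 0.068) and in limma without the trend (adjusted p = 0.0706). FTH1 stayed higher at 7 days with 36567 and 38309 (0.40 ± 0.11, adjusted p = 0.00727). That call was lost without the filter (adjusted p = 0.0567), without the trend (adjusted p = 0.0602) and without 7-day replicate 2 (0.36). FTL at 7 days, with 43670 and 38700, overlapped SB (0.22 ± 0.11, adjusted p = 0.111), and was called without SB replicate 1 (0.37, adjusted p = 0.0145). Both ferritin genes have many processed pseudogenes, and the values count reads that mapped to 1 place only, so their levels are uncertain. FTH1 also shares 63.2% of its exon bases with BEST1 on the opposite strand, which measured 10 to 22.

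**Figure D3:**
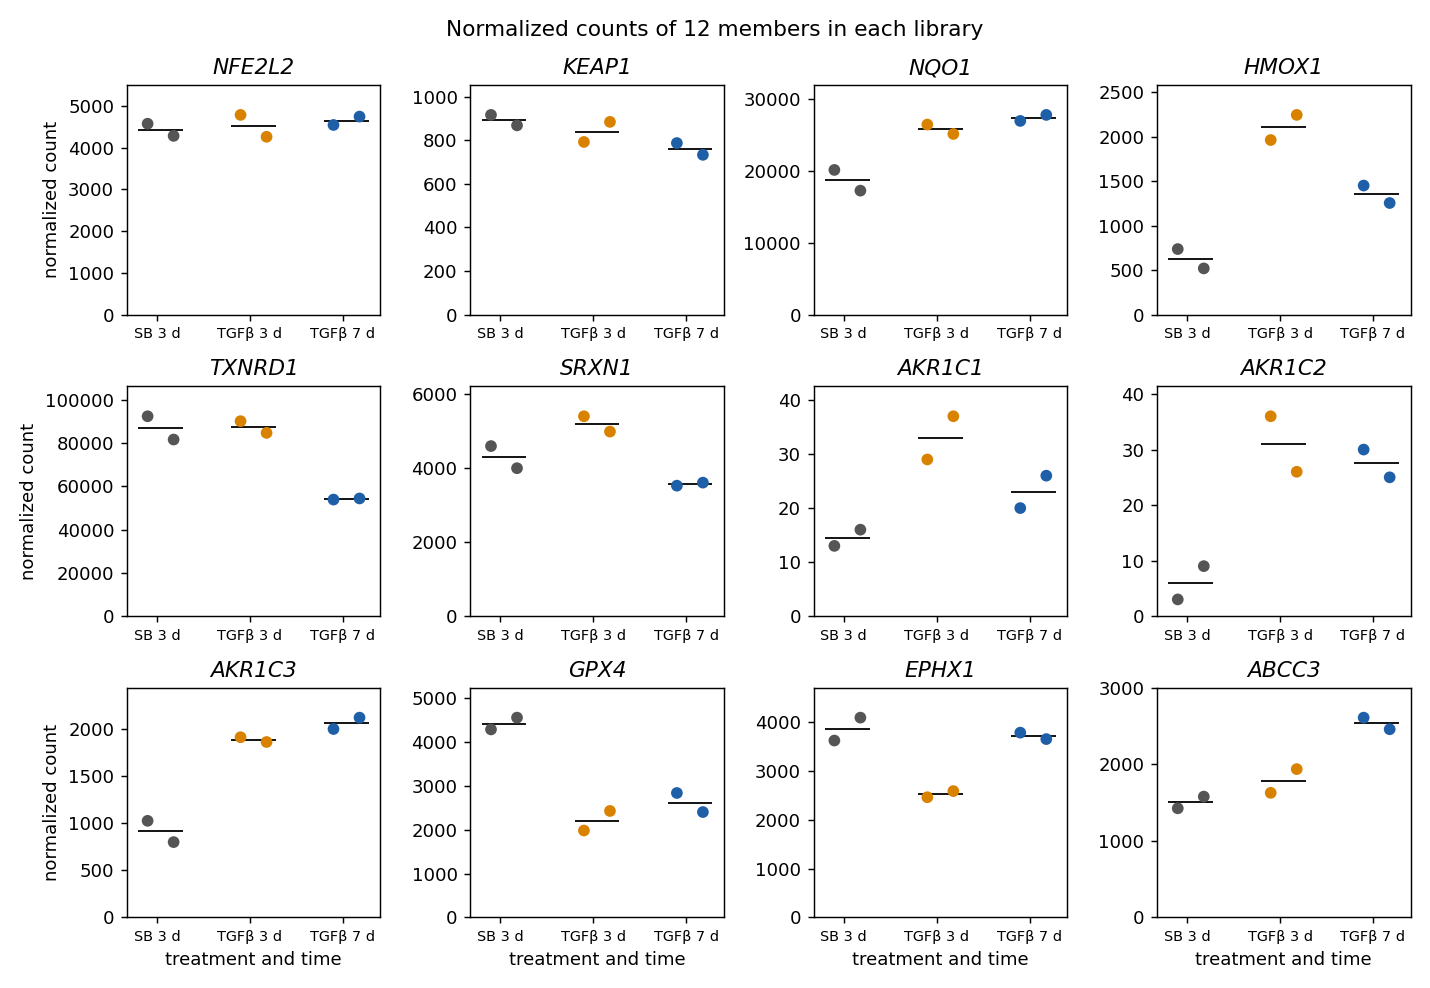
Normalized counts of 12 genes in each library (points) with the group mean (line), for SB at 3 days and TGFβ at 3 and 7 days. NFE2L2 overlapped in all 3 groups, NQO1 and AKR1C3 were higher in every TGFβ library, GPX4 was lower in every TGFβ library, TXNRD1 fell at 7 days alone, and EPHX1 fell at 3 days and was back among SB values at 7 days.

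The 3 members from the AKR1C cluster on chromosome 10, aldo-keto reductases that reduce carbonyls, steroids and prostaglandins, were each called higher than SB at 3 days. AKR1C3 (chr10:5077546-5149878, plus strand) measured 1026 and 800 normalized counts in SB, 1914 and 1863 at 3 days and 2001 and 2122 at 7 days. It was 2.08-fold higher at 3 days (1.06 ± 0.12, adjusted p = 4.02e-05) and 2.27-fold higher at 7 days (1.18 ± 0.12, adjusted p = 7.25e-06), and the calls held under every alternative. Its neighbors AKR1C1 and AKR1C2 were present at far lower levels. AKR1C2 measured 3 and 9 in SB, 36 and 26 at 3 days and 30 and 25 at 7 days, with log2 fold changes of 2.32 ± 0.45 (adjusted p = 0.00217) and 2.17 ± 0.45 (adjusted p = 0.00152). The size of this change rested on the SB libraries, with 2.98 without SB replicate 2 and 1.66 without SB replicate 1 at 3 days. AKR1C1 measured 13 and 16 in SB, 29 and 37 at 3 days and 20 and 26 at 7 days. AKR1C1 was called at 3 days (1.13 ± 0.33, adjusted p = 0.0228), though neither without SB replicate 1 (0.99, adjusted p = 0.0674) nor without either 3-day library (adjusted p of 0.0589 and 0.149), and was not called at 7 days (0.63 ± 0.33, adjusted p = 0.127). The 3 genes are close paralogs, and the split of their reads by unique mapping is uncertain.

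The B family did not follow the C family. AKR1B1, aldose reductase, measured 6961 and 5131 in SB, 6970 and 7250 at 3 days and 7141 and 6868 at 7 days, and was called at neither time unless SB replicate 1 was left out (a log2 difference of 0.47 at 3 days, adjusted p = 0.00326, with 0.45 for the 7-day contrast, adjusted p = 0.00223). AKR1B10, with 34 to 70 normalized counts over the 6 libraries, was not called. ALDH3A2, which oxidizes fatty aldehydes, fell from 3883 and 3597 in SB to 2955 and 2689 at 3 days (-0.41 ± 0.09, adjusted p = 0.00528) and 2749 and 2804 at 7 days (-0.43 ± 0.09, adjusted p = 0.00171), and the 3-day call was lost without 3-day replicate 2 (-0.34, adjusted p = 0.0562). Its relative ALDH3A1 was listed at 2 in each SB library and at 0 in the TGFβ libraries.

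EPHX1, the microsomal epoxide hydrolase, was the only tested member lower at 3 days and not called at 7 days. It measured 3626 and 4096 in SB, 2464 and 2590 at 3 days and 3788 and 3656 at 7 days. The 3-day values were apart from the other 4 libraries (-0.61 ± 0.09, adjusted p = 0.000362), the 7-day values lay within the SB range (-0.05 ± 0.09, adjusted p = 0.661), and the rise between the times passed the test (0.56 ± 0.09, adjusted p = 0.00104). CBR1, a carbonyl reductase, measured 1533 and 1377 in SB, 1732 and 1798 at 3 days and 1544 and 1418 at 7 days. Its 3-day value of 0.28 ± 0.10 missed the threshold (adjusted p = 0.0555) and passed it without SB replicate 1 (0.36, adjusted p = 0.0362).

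The export pumps of the ABCC family, which carry glutathione conjugates and other organic anions out of cells, showed no call at 3 days. ABCC3 measured 1425 and 1578 in SB, 1627 and 1937 at 3 days and 2609 and 2457 at 7 days, and was higher at 7 days than in SB (0.76 ± 0.11, adjusted p = 0.000114) and than at 3 days (0.51 ± 0.11, adjusted p = 0.00429). The second of these calls was lost without 3-day replicate 1 (0.39, adjusted p = 0.052). ABCC2 measured 155 and 142 in SB and 150 and 146 at 3 days, and fell to 105 and 84 at 7 days (-0.65 ± 0.19 against SB, adjusted p = 0.0108). The 7-day call of ABCC2 was lost without 7-day replicate 2 (-0.49, adjusted p = 0.116). ABCC1 was not called, with values between 2289 and 3078, but was lower at 3 days without SB replicate 1 (-0.34, adjusted p = 0.0377). OSGIN1, an oxidative stress response gene, lay between 176 and 281 and was not called in any comparison. UGDH-AS1, a noncoding RNA that shares 14.7% of its exon bases with UGDH on the opposite strand, lay between 29 and 53 and was not called either.

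Across the 3 comparisons, 24 of the 36 tested members were called at least once and 12 were not called. The most common course was a rise that was called at both times with no call between them, seen in 7 members (GCLM, GPX3, ME1, NQO1, FTH1, AKR1C2 and AKR1C3). Next came a fall called at 7 days against both SB and 3 days but not at 3 days, seen in 5 (TXNRD1, GPX1, MGST1, PGD and ABCC2). GCLC and GSR were called lower in all 3 comparisons, and GPX4 and ALDH3A2 were lower at both times with no call between them. HMOX1 was higher at both times and lower at 7 than at 3 days. PRDX1 and FTL were called higher at 3 days and lower at 7 than at 3 days, with no call at 7 days against SB. GSTO1 and AKR1C1 were called at 3 days alone. The count of 13 called between 7 and 3 days was 6 without 7-day replicate 2. Of those calls, GSR, PRDX1, GPX1, PGD, HMOX1, FTL, ABCC2 and ABCC3 were lost with at least 1 of the 6 libraries left out.

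**Figure D4:**
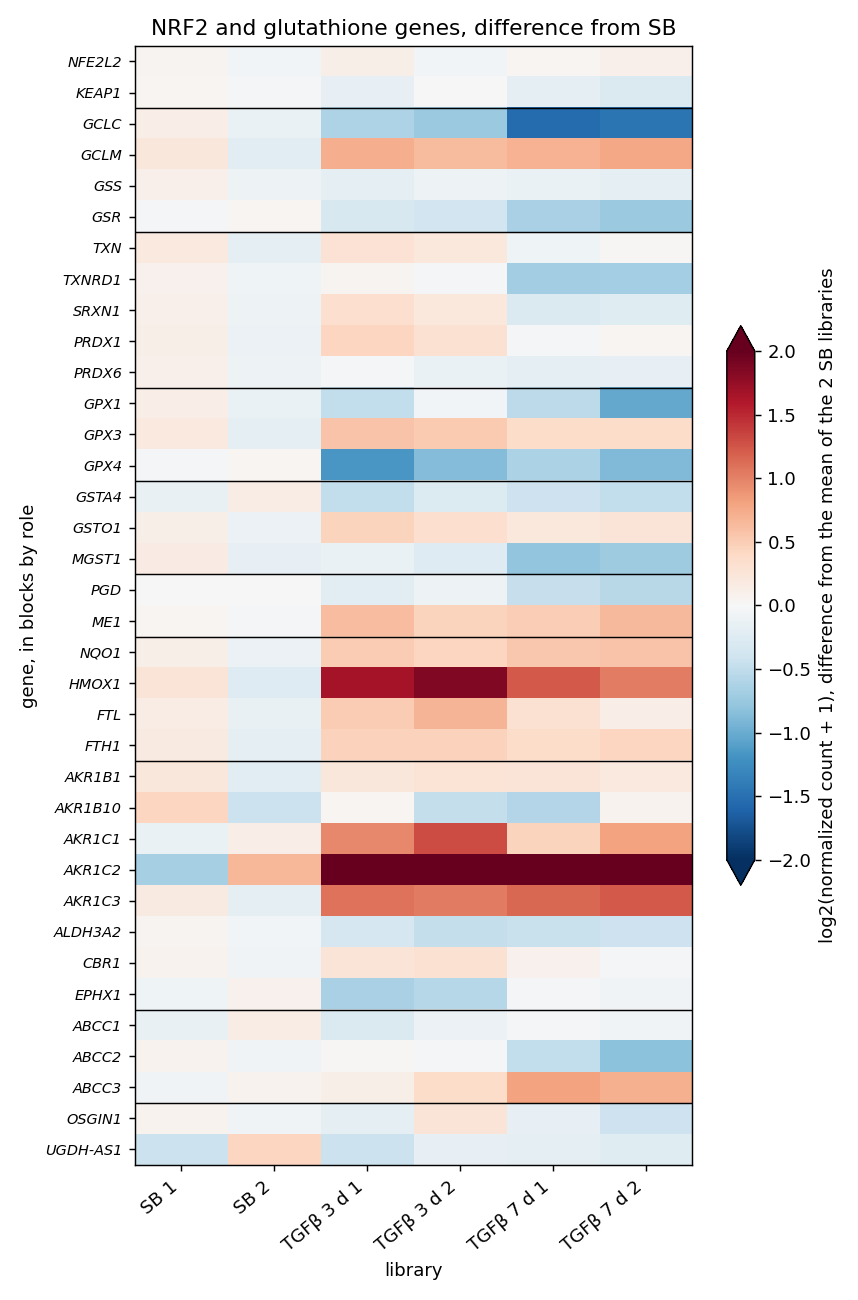
Difference of log2(normalized count + 1) from the mean of the 2 SB libraries for the 36 tested genes (rows, in blocks by role) in each of the 6 libraries (columns), on a color scale that ends at -2 and 2. GCLC was the lowest at 7 days (log2 fold change -1.50), and AKR1C2 lay past the upper end in all TGFβ libraries. The quinone, heme and iron block was above the mean of the 2 SB libraries in all 4 TGFβ libraries, although FTL at 7 days overlapped SB.

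Levels were compared between members per kilobase of the canonical transcript. The ferritin light chain FTL stood highest in each group, with a mean of 40809 normalized counts per kilobase in SB, 61482 at 3 days and 47285 at 7 days. FTH1 (23809), TXNRD1 (22571), PRDX1 (19324) and TXN (14514) followed in SB. At 7 days TXNRD1, at 14043 per kilobase, lay beside TXN at 14092. GCLC went from 4506 per kilobase in SB to 1585 at 7 days and GCLM from 1047 to 1719, so the order of the ligase subunits per kilobase was reversed at 7 days. AKR1C3 reached 1738 per kilobase at 7 days, whereas AKR1C1 and AKR1C2 were below 10 in every group. The transcripts that these cells used were not known, and these lengths are those of the annotation.

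A further list of 97 genes of NRF2 regulation and thiol redox biology was read beside the members. Of these, 92 were in the table and 83 were tested, and GSTA1, GSTM5, GSTT2, UGT1A1 and UGT1A6 were not analysed here. In this list 22 genes were called at 3 days (9 higher and 13 lower), 43 at 7 days (13 higher and 30 lower) and 32 between the times (12 higher and 20 lower). In total these were 26.5%, 51.8% and 38.6% of the genes tested from the list, near the 29.0%, 54.5% and 33.2% of all genes. By direction, all genes gave 14.9% higher and 14.0% lower at 3 days, 27.7% and 26.9% at 7 days, and 17.0% and 16.2% between the times. The list had more genes lower than higher in each comparison. The medians of the log2 fold change were -0.09, -0.16 and -0.04. Without SB replicate 2 the 3-day split was 4 higher and 15 lower, and without 3-day replicates 1 and 2 it was 5 higher and 12 lower and 5 higher and 15 lower. Between the times, 21 genes of the list were called without 7-day replicate 2.

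Of the 10 listed regulators, 3 were higher and 1 lower than SB at 3 days (40% called, beside 29.0% of all genes), and 1 was higher and 2 lower at 7 days (30%, beside 54.5%). MAFG, a small MAF protein that pairs with NRF2, measured 1731 and 1709 in SB, 2180 and 2366 at 3 days and 2663 and 2284 at 7 days (0.40 ± 0.10, adjusted p = 0.0111, and 0.52 ± 0.10, adjusted p = 0.00101), with the 3-day call lost without 3-day replicate 2 (0.34, adjusted p = 0.082). MAFF, of the same family, measured 661 and 639 in SB, 891 and 822 at 3 days and 421 and 359 at 7 days, and was lower at 7 days than in SB (-0.74 ± 0.12, adjusted p = 0.000356). Its 3-day rise (0.40 ± 0.12, adjusted p = 0.0317) lost the call with any 1 of the 4 SB and 3-day libraries left out. BACH1, the repressor that competes with NRF2 at HMOX1, measured 2117 and 2033 in SB, 2797 and 2489 at 3 days and 2290 and 2469 at 7 days (0.35 ± 0.10 at 3 days, adjusted p = 0.0176), which no longer passed without SB replicate 2 (adjusted p = 0.0627) or 3-day replicate 1 (adjusted p = 0.179).

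SLC7A11, the cystine antiporter that brings in the cysteine for glutathione, measured 15486 and 13405 in SB, 18323 and 16867 at 3 days and 17695 and 18772 at 7 days. Its rises of 0.29 ± 0.09 (adjusted p = 0.033) and 0.34 ± 0.09 (adjusted p = 0.00749) were small, and the second was lost without 7-day replicate 2 (adjusted p = 0.0823). The first was lost without SB replicate 2 (adjusted p = 0.153), 3-day replicate 1 (adjusted p = 0.223) or either 7-day library (adjusted p of 0.0626 and 0.064), as well as with equal library totals, without the filter, without the trend and with the compared groups alone. Of the 11 listed genes of cystine import and glutathione turnover, 2 were higher and 5 lower than SB at 7 days (63.6% called, beside 54.5% of all genes). GGT5, a gamma-glutamyl transferase, measured 956 and 1043 in SB, 263 and 340 at 3 days and 162 and 123 at 7 days (-1.74 ± 0.17, adjusted p = 1.42e-05, and -2.81 ± 0.17, adjusted p = 1.04e-07). CHAC2, a cytosolic enzyme that cleaves glutathione, fell at 7 days (-1.05 ± 0.14, adjusted p = 5.25e-05). GLRX, a glutaredoxin that removes glutathione from proteins, fell at both times (-0.72 ± 0.13, adjusted p = 0.00133, and -1.42 ± 0.13, adjusted p = 3.04e-06).

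HMOX2, the constitutive heme oxygenase, measured 3259 and 2781 in SB, 1679 and 1768 at 3 days and 1137 and 1077 at 7 days (-0.80 ± 0.10, adjusted p = 0.00011, and -1.44 ± 0.10, adjusted p = 3.93e-07). Heme oxygenase transcripts thus moved in opposite directions, since HMOX1 was higher at both times. GPX7, a peroxidase of the endoplasmic reticulum, rose at 7 days from 160 and 215 to 465 and 548 (1.44 ± 0.17, adjusted p = 2.48e-05), and GSTM2 from 103 and 135 to 254 and 237 (1.05 ± 0.18, adjusted p = 0.000457). SESN3, a sestrin (-1.39 ± 0.10, adjusted p = 4.17e-07), CBR3, a carbonyl reductase (-1.29 ± 0.21, adjusted p = 0.00029), and the efflux pump ABCG2 (-1.66 ± 0.13, adjusted p = 7.28e-07) were lower at 7 days than in SB. Of these, SESN3 stood lower still at 3 days, at 25.6% of the SB level beside 38.1% at 7 days. UGDH, which makes the donor for glucuronidation and overlaps UGDH-AS1, measured 3746 and 3497 in SB, 3988 and 3766 at 3 days and 3018 and 3195 at 7 days. Its 7-day value of -0.22 ± 0.09 passed the threshold narrowly (adjusted p = 0.0486) and did not pass it with any 1 library left out other than SB replicate 2.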

How the data were processed

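RNA was sequenced by the authors as read pairs with a kit that does not mark strand, aligned to hg19 with STAR, counted on genes from uniquely mapped reads with HTSeq 0.6.1p1 and normalized by library size. The deposited values are these normalized counts, rounded to whole numbers, and are treated as a score per gene and library rather than as raw counts. They could not be returned to reads, so the count test of the authors (DESeq2) was replaced by limma 3.58.1 in R 4.3.3.

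Values were taken as log2(normalized count + 1). The fit took the 14395 of 21293 genes whose mean reached 10, with the group as the only term, 3 residual degrees of freedom and empirical Bayes with a trend, and p-values were adjusted by the Benjamini-Hochberg method over all of them at 0.05. A fold change on this scale understates the change of low genes. An exact permutation test of 2 against 2 libraries cannot go below p = 0.333 and was not used. The alternatives, 10 over all libraries and 6 that leave out a library, are given in the closing section. Estimated depths cover counting error only.

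Groups and replicate numbers came from the labels. The 40 members, the further lists and the tests were chosen with earlier results of these data known. Members are described by role. Values in every library are given for NFE2L2, KEAP1, NQO1, HMOX1, GCLC, GCLM, TXNRD1 and SRXN1, for members called with a change of at least 2-fold, and for further members and list genes named in the text. From the further list, SLC7A11, BACH1, MAFG and UGDH were named, with the genes of a mean of at least 100 that were called with a change of at least 2-fold. A gene that the rule also named is not reported here. Coordinates and transcript lengths came from the GENCODE annotation of GRCh37, which is hg19, and promoter sequences from RefSeq on GRCh38.p14. The steps were tested on simulated data.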

Additional observations from a re-analysis of the deposited data

Results flagged for a closer look

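For 13 of the 36 tested members the level under TGFβ differed between 7 and 3 days by a direct test (limma, adjusted p under 0.05). The SB libraries enter this test only through the estimate of the spread. Because SB was given for 3 days only, longer treatment and longer culture cannot be told apart in it. Of all 14395 tested genes, 33.2% were called in that comparison. On the log2 scale of 7 against 3 days, GCLC stood at -0.82, TXNRD1 at -0.69, ABCC2 at -0.65 and HMOX1 at -0.64. MGST1 was at -0.56, SRXN1 at -0.54 and GPX1 at -0.50. Smaller differences were seen for FTL at -0.38, PRDX1 at -0.37, GSR at -0.35 and PGD at -0.35. EPHX1 at 0.56 and ABCC3 at 0.51 were higher at 7 days. The groups hold 2 libraries each, which is too few to test whether a single library stands apart. GCLC, TXNRD1, SRXN1, MGST1 and EPHX1 kept these calls under all 16 alternatives, and the other 8 lost theirs under at least 1. The call of GPX1 was lost without either SB library (adjusted p of 0.0514 and 0.0508).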

How the results depend on the processing

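The alternatives were other pseudocounts (0.5 and 5), a fit of all genes without a filter, a filter at a mean of 50, 3 other scalings, limma without the trend, the replicate block, a fit of the compared groups alone and each library left out in turn. Of the calls of members, 10 of 18 at 3 days, 15 of 19 at 7 days and 5 of 13 between the times kept their direction and stayed past the threshold in every alternative in which the gene was tested. Over the single genes that the rule on named genes took, 2336 values kept direction and side of the threshold, 125 lost a call, 26 gained one and 45 changed sign, with no call on either side among the last. The cause of these changes was not tested.

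Between 7 and 3 days, no filter on low values gave 8 members and 3042 of all genes, where more genes were tested. Without the trend, limma called 7 members, 21 genes of the further list and 3122 of all genes in that comparison, and 13 of the further list at 3 days against SB. With a library left out, the counts between 7 and 3 days ran from 6 to 14 members, from 21 to 35 of the further list and from 2314 to 5554 of all genes, each lowest without TGFβ 7-day replicate 2. For all genes, they were also low without 7-day replicate 1 (2573) and 3-day replicate 1 (2810). At 3 days against SB, the count over all genes ran from 2609, without 3-day replicate 1, to 3877. Where a group is left with 1 library, that library is assumed to vary like the others. The other totals stayed within 1.5 times, whereas the numbers higher and lower moved further in places. At 3 days against SB, limma without the trend gave 8 members higher and 4 lower, and 2 genes of the further list higher and 11 lower. Without the filter, the further list gave 5 higher and 11 lower and all genes 1597 higher and 1249 lower. Between the times, 1 member was higher and 8 lower without 3-day replicate 1, 3 were higher and 6 lower without 3-day replicate 2, and all genes gave 1787 higher and 1497 lower without the latter.

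The replicate numbers did not pair the libraries. Replicate differences correlated over genes by 0.14 between SB and 3 days, -0.10 between SB and 7 days and -0.29 between 3 and 7 days. The replicate block gave 17, 19 and 13 members called in the 3 comparisons, and SRXN1 at 3 days and UGDH at 7 days against SB lost their calls under it.

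The scalings shifted the median of all genes by at most 0.06 on the log2 scale. With equal library totals, NFE2L2 (-0.027), TXNRD1 (-0.047) and OSGIN1 (-0.014) at 3 days and PRDX1 (-0.047) and CBR1 (-0.022) at 7 days against SB fell just below 0. ABCC2 at 3 days was at 0.0055 with median-of-ratios size factors and 0.0090 with the upper quartile, and PRDX1 at 7 days at -0.0063 with the former.

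Genes that were not called changed sign with a library left out, over these ranges. At 3 days against SB they were NFE2L2 (-0.055 to 0.11), TXNRD1 (-0.081 to 0.098), PRDX6 (-0.18 to 0.0082), AKR1B10 (-0.65 to 0.22), ABCC2 (-0.066 to 0.059), OSGIN1 (-0.18 to 0.26) and UGDH-AS1 (-0.72 to 0.13). At 7 days against SB they were TXN (-0.23 to 0.16), PRDX1 (-0.12 to 0.12), AKR1B10 (-0.69 to 0.17), CBR1 (-0.051 to 0.10), EPHX1 (-0.14 to 0.037), ABCC1 (-0.20 to 0.090) and UGDH-AS1 (-0.65 to 0.20). Between the times they were NFE2L2 (-0.043 to 0.12), GSS (-0.060 to 0.012), GSTA4 (-0.17 to 0.041), ME1 (-0.044 to 0.13), AKR1B1 (-0.050 to 0.0068), AKR1B10 (-0.37 to 0.28), AKR1C2 (-0.38 to 0.072), ALDH3A2 (-0.090 to 0.046), UGDH-AS1 (-0.062 to 0.20) and SLC7A11 (-0.0077 to 0.11).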
